A study of Rattus norvegicus with 5 samples.

Results

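Gad1, Gad2, Gabbr1, Sst, Npy, Cck, Vip, Calb1 and Calb2 are genes of inhibitory signalling in the brain, and they were followed here in rat hippocampus. Their probe sets were those whose single gene symbol in the probe annotation is one of these 9 names, whatever their values. This gave 13 probe sets for 9 genes, out of 8799 probe sets on the array and 4736 genes that the annotation names through a single symbol. Gabbr1 has 4 probe sets, Sst has 2 and each of the other 7 genes has 1.

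GABA is the main inhibitory transmitter of the adult brain. The enzymes encoded by Gad1 (GAD67) and Gad2 (GAD65) make it from glutamate, and the slow, G protein coupled GABA-B receptor, a pair of the GABBR1 and GABBR2 proteins, is one of the receptors that reads it. Hippocampal interneurons are told apart by the peptides and calcium-binding proteins they hold: somatostatin (Sst), neuropeptide Y (Npy), cholecystokinin (Cck), vasoactive intestinal peptide (Vip), calbindin (Calb1) and calretinin (Calb2). Several of these are not confined to interneurons, since dentate granule cells make calbindin and Cajal-Retzius cells make calretinin.

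Total RNA of hippocampus from rats, labelled P5, was measured on 5 single-colour arrays. The control diet group had 2 arrays, the group exposed to alcohol as fetuses 2, and the isocaloric diet group, which serves to match calories without alcohol, 1. Not given in the sources used here are strain, sex, alcohol dose, the timing of exposure and whether a sample was 1 animal or a pool. The p-values therefore measure only the spread between these samples, which may be technical, and the number of arrays limits the precision. Intensities are the authors' values on a linear scale. Differences are on the scale log2(intensity + 10.6), where 10.6 is the 20th percentile of all intensities, so the change of a dim probe set is understated.

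The arrays carried a similar overall signal, with medians between 49.3 and 56.0. As a check for neuronal tissue, summed intensities of 9 pan-neuronal marker genes lay between 6003 and 7379, and those of 12 interneuron genes, which include members, between 5011 and 5505. These sums cannot tell hippocampus from other brain regions. Summed markers of the neighbouring striatum and thalamus (5 genes) lay between 249 and 310. Slc17a7, the vesicular transporter of excitatory hippocampal neurons, read between 3.15 and 5.72, under the offset on all 5 arrays. It was the only 1 of 9 excitatory neuron markers to do so. Of the others, Nrgn read between 1474 and 2161, Neurod1 between 109 and 251 and Grin2b between 105 and 150. Summed markers of the choroid plexus, an epithelium beside the hippocampus (6 genes), were 5716 and 5371 under control diet, 1219 and 311 after fetal alcohol and 6105 under isocaloric diet. Ttr alone gave 5297 and 4886, 1004 and 69.2, and 5391 of these. Aqp1, Enpp2 and Sostdc1 were also below both control diet arrays on both fetal alcohol arrays, while Kl and Prlr overlapped control diet. Summed markers of the meninges (8 genes) were 2927 and 4187, 3116 and 1747, and 2977 in the same order. Both fetal alcohol arrays were thus low in Ttr, Aqp1, Enpp2 and Sostdc1, and fetal alcohol array 2 alone was low in the summed markers of the meninges. The part of this in the results below was not tested. In bulk tissue, fewer cells of a type and less RNA per cell cannot be told apart.

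Gabbr1 was the member with the widest span between arrays and the one on which most of the results turn, so the sequence before its start is shown. RefSeq places the start used here on the minus strand of GRCr8, and the 250 bases before it are chr20:1499237-1499486. Vip, the gene with the fewest CG dinucleotides before its start, is set beside it (plus strand, chr1:44470230-44470479). Each is written 5′ to 3′, and capitals mark every CG dinucleotide.
Gabbr1: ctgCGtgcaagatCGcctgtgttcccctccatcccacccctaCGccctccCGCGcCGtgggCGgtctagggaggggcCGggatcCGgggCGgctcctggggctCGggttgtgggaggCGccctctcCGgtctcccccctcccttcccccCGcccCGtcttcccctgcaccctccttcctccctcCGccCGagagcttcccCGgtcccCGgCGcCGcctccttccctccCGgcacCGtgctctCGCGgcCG
Vip: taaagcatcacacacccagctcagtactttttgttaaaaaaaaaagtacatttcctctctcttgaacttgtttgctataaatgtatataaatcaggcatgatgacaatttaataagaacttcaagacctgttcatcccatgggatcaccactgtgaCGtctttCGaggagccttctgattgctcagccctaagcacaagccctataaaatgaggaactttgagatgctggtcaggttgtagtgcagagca

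The table of RefSeq promoters held 6 of the 9 genes. The Gabbr1 window has 26 CG dinucleotides, more than 91.4% of the 33469 promoters, where the median is 5. Gad1 has 23, Gad2 22, Npy 17 and Sst 8, and Vip has 2. TGACG, the core of the cAMP response element, was searched on both strands. Among the 6 genes it occurs in the Vip window, at base -97 counted back from the start, and it occurs in 18.2% of all promoters. The full element TGACGTCA was not among the letters of any of the 6 windows (1.59% of all promoters hold it). TATAAA on either strand was found for Vip and Gad1, against 12.9% of all promoters. Gabbr1 is transcribed from more than 1 start in brain. Each of the 6 windows shows the RefSeq start alone, so an element near another start of a gene could be missed. The absence of TGACGTCA from a window, that of Sst included, therefore does not show that the gene lacks the element.

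The GABA-synthesising enzymes had overlapping values under control diet and after fetal alcohol. Gad1 measured 392 and 362 under control diet, 289.9 and 464 after fetal alcohol and 380.5 under isocaloric diet. The fetal alcohol arrays held both its lowest and its highest value, and the other 3 arrays lay between them. The mean was 377 ± 21.7 (SD, n = 2) for control diet and 377 ± 123 (SD, n = 2) for fetal alcohol. Gad2 measured 45.8 and 55.1 under control diet, 47.0 and 52.5 after fetal alcohol and 44.5 under isocaloric diet, so its groups overlapped and the isocaloric value was the lowest by a small margin.

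Neither enzyme differed beyond the spread between arrays. The log2 difference of Gad1, fetal alcohol minus control diet, was -0.04 ± 0.28 (SE), with a 95% interval from -0.67 to 0.60 (limma adjusted p = 0.997). For Gad2 it was -0.01 ± 0.24, with an interval from -0.56 to 0.53 (adjusted p = 0.997). The intervals do not show that the levels were equal: a change of the size at their ends could not be seen with these arrays. The direction of the Gad1 difference rested on single arrays, since it was 0.29 without fetal alcohol array 1 and -0.37 without fetal alcohol array 2.

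Gabbr1, the GABA-B subunit that binds GABA, had its highest signal on control diet, less after fetal alcohol and least on the isocaloric diet. Probe set AB016160_at measured 997 and 944 under control diet, 551 and 725 after fetal alcohol and 269 under isocaloric diet. None of these groups overlapped. The group means were 971 ± 37.5 and 638 ± 123 (SD, n = 2 each), so the fetal alcohol mean was 65.7% of the control diet mean and the isocaloric value was 27.8% of it. AB016160_g_at, taken from the same sequence record and so not an independent measure, gave 345 and 306, 196 and 243, and 101 in the same order. AB016161cds_i_at, from a second Gabbr1 record, gave 141 and 143 on control diet, 112 and 124 after fetal alcohol and 58.8 on the isocaloric diet.

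These 3 probe sets put the isocaloric array below both fetal alcohol arrays and these below both control diet arrays. Of all 5244 probe sets tested, 5.02% had this order. The fourth, AB016161cds_r_at, did not share it: it measured 52.3 and 66.7 under control diet, 78.2 and 70.7 after fetal alcohol and 55.1 under isocaloric diet. Its fetal alcohol values were the highest and its isocaloric value lay between the control diet values. In the array maker's naming, the letter r marks a probe set built with some probe selection rules dropped and the letter i an incomplete one. The sources used here do not say which Gabbr1 isoform each probe set detects. Divided by AB016160_at on the same array, the r probe set ran from 0.0524 on control diet array 1 to 0.204 under isocaloric diet, while AB016160_g_at kept between 0.324 and 0.376.

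**Figure D1:**
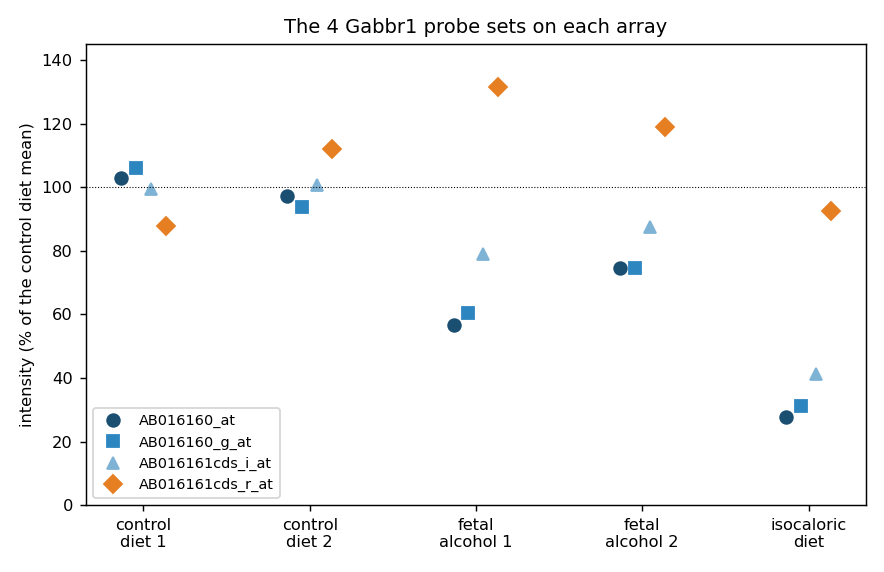
Intensity of the 4 Gabbr1 probe sets on each of the 5 arrays, as a percentage of that probe set's own control diet mean (dotted line at 100). The probe sets AB016160_at, AB016160_g_at and AB016161cds_i_at lie at 27.8, 31.2 and 41.4% under isocaloric diet, and AB016161cds_r_at at 92.5%.

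The comparison of isocaloric with control diet asked how the feeding control itself differs, and gave the largest Gabbr1 differences. The log2 difference was -1.81 ± 0.29 (SE) at AB016160_at, with a 95% interval from -2.47 to -1.15 and an unadjusted p of 0.000205 in limma. It was -1.58 ± 0.29 at AB016160_g_at, -1.14 ± 0.27 at AB016161cds_i_at and -0.09 ± 0.29 at AB016161cds_r_at. After Benjamini-Hochberg adjustment over all probe sets none passed the threshold of 0.05, and the adjusted p-values of the 4 were 0.27, 0.342, 0.449 and 0.968. Of the 12 member probe sets tested, 0 passed, as did 0 of all 5244 (0% called), while an unadjusted p under 0.05 was reached by 3 of the 12, each of Gabbr1 and lower, and by 6.81% of all (5.43% lower and 1.37% higher). By position alone, the isocaloric array lay below both control diet arrays for 6 of the 12 and above both for 2, against 37.5% and 38.3% of all, and it was the lowest of all 5 arrays for 6, against 21.9%. The 6 were 3 probe sets of Gabbr1, Sst at K02248cds_s_at, Gad2 and Calb2, so they are not 6 separate measures. For Gad2 (44.5 against 45.8) and Calb2 (499 against 501) the margin to the nearer control diet array was small. Summed markers of excitatory neurons (9 genes) were 2344 and 2282 under control diet, 2821 and 2439 after fetal alcohol and 1967 under isocaloric diet, and 7 of the 9 genes were lower there than in both control samples. Of the 7, Camk2a and Camk4 were dim, at 8.17 and 14.6 under isocaloric diet. Summed oligodendrocyte markers (7 genes) were 723 and 724, 807 and 687, and 659 in the same order, with 5 of the 7 lower there than in both control samples. In other lists, the isocaloric array was below both control samples for 4 of 9 pan-neuronal, 4 of 12 interneuron, 3 of 7 astrocyte and 3 of 6 microglia genes. The part of the marker differences in the Gabbr1 difference was not tested. The single isocaloric array has no replicate check and was assumed to vary like the other groups. Without fetal alcohol array 1 the first 2 probe sets had adjusted p-values of 0.0404 and 0.0492, and without fetal alcohol array 2 they had 0.0379 and 0.0476. In those fits 11 and 13 of all 5244 probe sets passed, or 0.21% and 0.248%. The differences were the same in those fits, since the arrays left out belong to neither diet, and the smaller spread came from the control diet pair alone.

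Fetal alcohol was set against control diet to ask how the exposed group differs. In this comparison, effects of alcohol and of feeding cannot be told apart. Here Gabbr1 had smaller differences, -0.61 ± 0.24 at AB016160_at (95% interval -1.15 to -0.07, unadjusted p = 0.0311, limma adjusted p = 0.82), -0.55 ± 0.24 at AB016160_g_at (adjusted p = 0.883) and -0.25 ± 0.22 at AB016161cds_i_at (adjusted p = 0.965). AB016161cds_r_at ran the other way, with 0.29 ± 0.24 (adjusted p = 0.965), and this was 0.14 without control diet array 1 and 0.44 without control diet array 2. Of the 12 member probe sets, 0 passed the threshold, as did 0 of all 5244 (0% called). An unadjusted p under 0.05 was reached by 2, both of Gabbr1 and lower, against 5.61% of all (3.95% lower and 1.66% higher). Among the 12, the fetal alcohol and control diet arrays did not overlap for 6, with 3 lower, all Gabbr1, and 3 higher, against 34.5% of all probe sets tested. The 3 higher were Gabbr1 at AB016161cds_r_at, Sst at M25890_at and Cck. Gabbr1 was thus on both sides, and the 6 are not separate measures. Of all probe sets, 17.7% were lower without overlap and 16.8% higher.

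Against the isocaloric array, a feeding control without alcohol, fetal alcohol arrays had more Gabbr1 signal. The log2 differences were 1.20 ± 0.29 at AB016160_at (95% interval 0.54 to 1.86, unadjusted p = 0.00292), 1.03 ± 0.29 at AB016160_g_at, 0.89 ± 0.27 at AB016161cds_i_at and 0.37 ± 0.29 at AB016161cds_r_at. Their limma adjusted p-values were 0.986 for the first and 0.998 for the other 3. None of the 12 member probe sets passed, as did 0 of all 5244 (0% called), and an unadjusted p under 0.05 was reached by 3 of the 12, again of Gabbr1 and higher, against 4.21% of all (2.67% higher and 1.54% lower). This comparison and the previous ones share arrays, so their signs are not independent of each other. At 3 of the 4 probe sets the fetal alcohol values lay below control diet and above isocaloric diet, and at AB016161cds_r_at they lay above both.

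The genes whose profile over the 5 arrays was nearest to AB016160_at, by the root mean square difference of centred log2 values, were Pcsk5, a proprotein convertase, at 0.118, Grin2d, an NMDA receptor subunit, at 0.141 and Tubb5, a beta-tubulin, at 0.164. Nearest to AB016160_g_at were Rab3a, a GTPase of synaptic vesicles, at 0.114, Cplx1, which encodes complexin 1, a regulator of transmitter release, at 0.115 and Pcsk5 at 0.115. Rab3a measured 820 and 804 under control diet, 481 and 543 after fetal alcohol and 296 under isocaloric diet. AB016160_g_at was at 0.0931 from AB016160_at, and AB016161cds_i_at, at 0.269, ranked 17 among all probe sets by nearness to it. With 5 arrays and 5243 other probe sets, near profiles are easily found, and these are given as a description. For the probe set AB016161cds_i_at the nearest were Mapk14, a stress-activated kinase, at 0.0539, Ndufa4l2 at 0.079 and Plaat5 at 0.0824.

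Gabbr2 encodes the partner that GABBR1 needs to reach the cell surface, and its 3 probe sets did not agree. Its brightest probe set measured 609 and 399 under control diet, 665 and 559 after fetal alcohol and 464 under isocaloric diet. The control diet arrays differed more from each other than the group means did. The log2 difference was 0.30 ± 0.27 for fetal alcohol minus control diet and -0.09 ± 0.33 for isocaloric minus control diet (limma adjusted p = 0.965 and 0.977). The other probe sets, AF074482_s_at and AF109405_s_at, gave -0.29 and -0.21 in the first and -0.40 and -0.67 in the second, so their group means ran in the same order as those of Gabbr1 while the brightest probe set had the opposite sign for fetal alcohol. Their fetal alcohol and control diet values overlapped: AF109405_s_at measured 189.5 and 133 under control diet, 141 and 131 after fetal alcohol and 95.7 under isocaloric diet.

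Among the peptides, cholecystokinin stood higher on the arrays of both other diets than on control diet. Cck measured 538 and 617 under control diet, 764 and 735 after fetal alcohol and 788 under isocaloric diet. The 3 arrays of the other diets lay above both control diet arrays. The log2 difference was 0.37 ± 0.22 for fetal alcohol (95% interval -0.13 to 0.87, limma adjusted p = 0.946) and 0.45 ± 0.27 for isocaloric diet (-0.17 to 1.06, adjusted p = 0.849), so neither passed. The range was 0.28 to 0.47 for fetal alcohol and 0.35 to 0.54 for isocaloric diet over all alternatives.

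Somatostatin, the inhibitory peptide of dendrite-targeting interneurons, was measured by 2 probe sets that agreed in part. M25890_at gave 1107 and 1268 under control diet, 1367 and 1326 after fetal alcohol and 1205 under isocaloric diet, with both fetal alcohol values above both control diet values. K02248cds_s_at gave 499.7 and 569.8, 659 and 453, and 384 in the same order. There the fetal alcohol arrays lay on either side of the control diet arrays, and the isocaloric array was the lowest. Fetal alcohol minus control diet gave log2 differences of 0.18 ± 0.20 and 0.03 ± 0.26, and isocaloric minus control diet gave 0.02 ± 0.25 and -0.47 ± 0.32, with limma adjusted p-values between 0.853 and 0.997.

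Neuropeptide Y, which is released with GABA and damps excitatory transmission, had overlapping values across diets. Npy measured 384 and 465 under control diet, 462 and 394 after fetal alcohol and 397 under isocaloric diet. The control diet pair spanned the values of the other 3 arrays. Its log2 difference was 0.01 ± 0.24 for fetal alcohol (95% interval -0.53 to 0.56, limma adjusted p = 0.997) and -0.09 ± 0.29 for isocaloric diet (adjusted p = 0.968).

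Vip, a peptide of interneurons that inhibit other interneurons, was the dimmest member and the 1 not tested. It measured 19.1 and 24.7 under control diet, 15.5 and 32.2 after fetal alcohol and 24.0 under isocaloric diet. Its fetal alcohol arrays differed by more than the group means did. Its mean log2 value was under the 40th percentile that a probe set had to reach, and without that filter the log2 difference of Vip was 0.04 ± 0.30 for fetal alcohol minus control diet (adjusted p = 0.995).

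Calbindin, a calcium buffer of interneurons and granule cells, varied more between arrays than calretinin. Calb1 measured 104 and 93.0 under control diet, 104 and 205 after fetal alcohol and 174 under isocaloric diet. Fetal alcohol array 1 lay within the control diet range, and fetal alcohol array 2 and the isocaloric array lay above it. The log2 difference was 0.52 ± 0.32 for fetal alcohol minus control diet (95% interval -0.20 to 1.25, limma adjusted p = 0.946). Without fetal alcohol array 1 it was 0.98 and without fetal alcohol array 2 it was 0.07, so 1 array decides its size. For isocaloric minus control diet it was 0.76 ± 0.39 (-0.13 to 1.65, adjusted p = 0.82). Nearest to Calb1 over the 5 arrays were Ssbp2 at 0.0723, Celf1, an RNA-binding protein, at 0.0795 and Papola, a poly(A) polymerase, at 0.0839.

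Calb2 measured 501 and 594 under control diet, 576 and 529.9 after fetal alcohol and 499 under isocaloric diet. Its fetal alcohol values lay between the control diet values, and the isocaloric value was below the lower of these by a margin far smaller than their gap. The log2 difference was 0.02 ± 0.23 for fetal alcohol (95% interval -0.50 to 0.54, limma adjusted p = 0.997) and -0.13 ± 0.28 for isocaloric diet (adjusted p = 0.96).

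**Figure D2:**
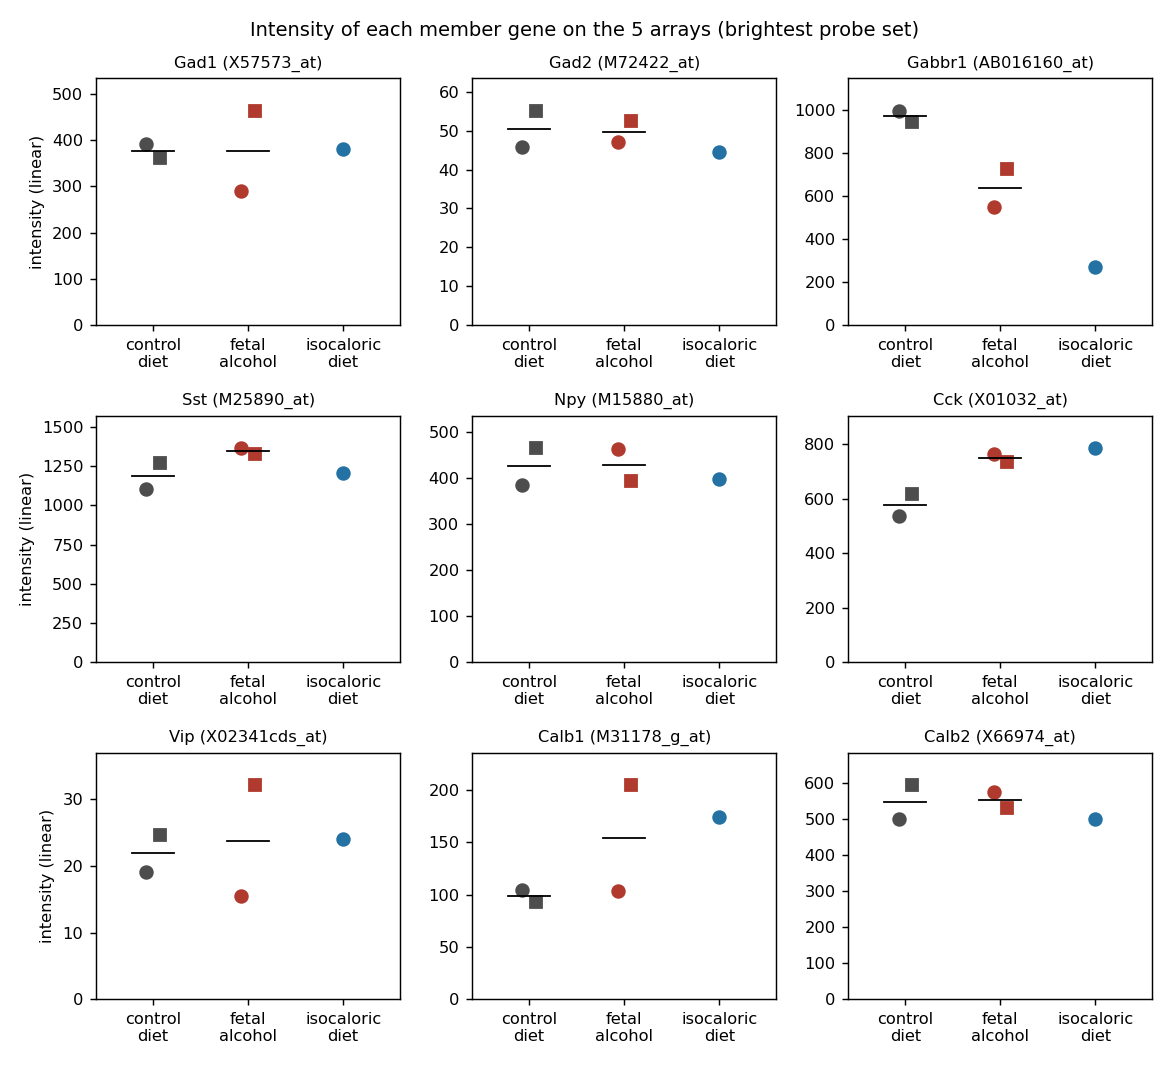
Intensity (linear axis from 0) of the brightest probe set of each of the 9 genes by diet group. Circles are array 1 and squares array 2 of a group, and bars are the means of the groups with 2 arrays. Gabbr1 steps down from 997 and 944 to 551 and 725 and to 269, Cck is higher off the control diet, and Calb1 is high on fetal alcohol array 2 and under isocaloric diet.

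Set side by side at their brightest probe sets, the 7 tested genes other than Gabbr1 had log2 differences between -0.04 and 0.52 for fetal alcohol minus control diet, with a median of 0.02, and adjusted p-values from 0.946 to 0.997. For isocaloric minus control diet they lay between -0.14 and 0.76, with a median of 0.01. For fetal alcohol minus isocaloric diet they lay between -0.23 and 0.16, with a median of 0.10. Standard errors ran from 0.20 to 0.32 between fetal alcohol and control diet, and from 0.25 to 0.39 for the comparisons with the isocaloric array. Over the 5244 probe sets the median difference was 0.005, -0.003 and 0.02 for fetal alcohol minus control diet, fetal alcohol minus isocaloric diet and isocaloric minus control diet.

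**Figure D3:**
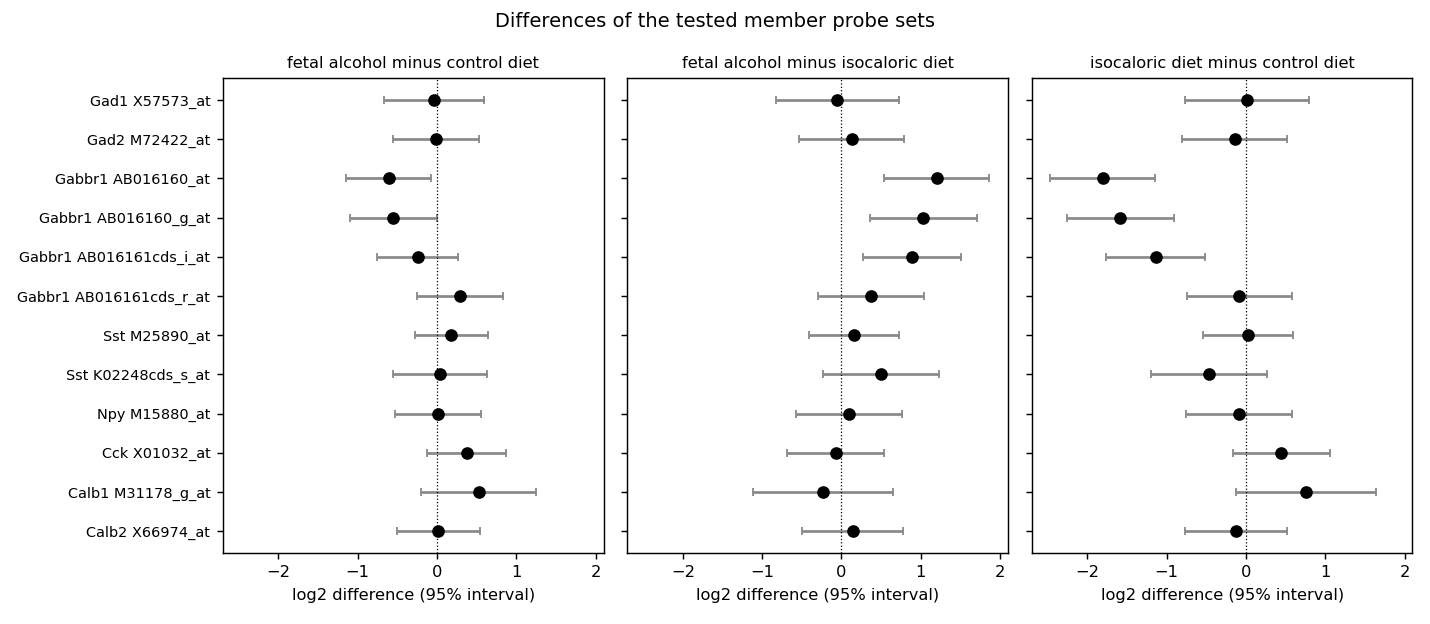
Log2 differences of the 12 tested member probe sets in the 3 comparisons, with 95% intervals from limma that are not adjusted for the number of probe sets. Probe sets of Gabbr1 alone have intervals clear of 0: 2 of them for fetal alcohol minus control diet, and 3 in each comparison with the isocaloric array.

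Other genes that move or break down GABA were counted from a list of transporters, enzymes and chloride carriers that also holds Gabbr2. Of its 12 genes 9 were tested, and none passed in any comparison. In fetal alcohol minus control diet 6 of 9 were lower, with a median log2 difference of -0.19, against 0.01 over the 3174 genes tested. Slc6a11, the GABA transporter GAT-3 of astrocytes, had -0.66 ± 0.28 (limma adjusted p = 0.875), with 164 and 154 under control diet and 73.0 and 127 after fetal alcohol. Slc32a1, which loads GABA into vesicles, had -0.30 ± 0.24, with 731 and 703 against 675 and 496. In isocaloric minus control diet 7 of 9 were lower, with a median of -0.16 against 0.03 over all genes: Abat, the enzyme that breaks GABA down, had -0.60 ± 0.28 (adjusted p = 0.746) at D87839_at and -0.08 ± 0.31 at D87839_g_at, Slc32a1 -0.46 ± 0.29 and Slc12a2, the chloride importer NKCC1, -0.43 ± 0.29. A brighter value under isocaloric diet was found at another Slc12a2 probe set, AF051561_s_at, with a log2 difference of 0.71.

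Receptors for the peptides were given by 8 tested genes of 14 listed. Against control diet, the isocaloric array was lower for 7 of 8, with a median of -0.20, and none passed. Of all genes, 46.3% were lower, with a median of 0.03. The somatostatin receptors Sstr4, Sstr2 and Sstr5 had the largest differences, -0.68 ± 0.27, -0.61 ± 0.29 and -0.41 ± 0.30 (limma adjusted p = 0.681, 0.767 and 0.853). Sstr2 measured 174 and 196 under control diet, 303 and 254 after fetal alcohol and 118 under isocaloric diet, so it was highest after fetal alcohol. For fetal alcohol minus control diet Sstr2 had 0.56 ± 0.24 (adjusted p = 0.875) and Npy1r, a neuropeptide Y receptor, 0.27 ± 0.23. Adcyap1r1, the receptor of the Vip-related peptide PACAP, had -1.02 ± 0.26 at D14908_s_at (adjusted p = 0.573) and -0.32 at D14909_at. In that comparison 4 of 8 were higher and 4 lower, with a median of 0.00.

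Of the genes through which GABA-B receptors act, among them the G protein subunits, adenylyl cyclases and potassium channels, 12 of 17 were tested and none passed. After fetal alcohol, relative to control diet, 8 were higher and 4 lower, with a median of 0.14. Of all genes, 47.6% were lower, with a median of 0.01. Rgs4, which shortens G protein signals, had 0.69 ± 0.51, Gnai2, an inhibitory G protein subunit, 0.43 ± 0.22 and Adcy8, a calcium-activated adenylyl cyclase, 0.31 ± 0.25 (limma adjusted p = 0.965, 0.911 and 0.965). The other Gnai2 probe sets, M12672_at and rc_AA875225_g_at, gave -0.48 and -0.58. Adcy5 was counted as higher by its brightest probe set (0.10 ± 0.24), while rc_AI044848_s_at gave -1.06 ± 0.26 (limma adjusted p = 0.567). Under isocaloric diet, relative to control diet, 6 were higher and 6 lower, where 46.3% of all genes were lower. Gnao1, the main G protein alpha subunit of neurons, had -0.61 ± 0.31 (adjusted p = 0.824), Gnai1 0.30 ± 0.52 and Gnai2 0.27 ± 0.27. Gnai2 was counted as higher by its brightest probe set here too. Its other probe sets ran the other way, with -0.40 ± 0.28 at M12672_at and -0.83 ± 0.27 at rc_AA875225_g_at. The probe sets of the channel genes Kcnj6 and Kcnj9 read under the offset on all arrays.

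Further interneuron genes, from parvalbumin to the Dlx factors, were tested for 13 of 23 listed, and none passed. Relative to control diet, 11 of 13 were higher after fetal alcohol, with a median of 0.15, where 47.6% of all genes were lower and their median was 0.01. The count uses the brightest probe set and includes differences near 0, such as Cnr1 at 0.01 and Penk at 0.02. Maf was counted as higher at 0.09, while its other tested probe set, U56242_at, gave -0.57 ± 0.24. Tac1, the precursor of substance P, had 0.62 ± 0.31, Htr3a, a serotonin-gated channel, 0.45 ± 0.32 and Kcnc2, a fast potassium channel, 0.42 ± 0.32 (limma adjusted p = 0.911, 0.961 and 0.965). Tac1 measured 100.1 and 93.0 under control diet and 109 and 215 after fetal alcohol, so array 2 carried most of its difference. Htr3a measured 58.6 and 120 under control diet, 124 and 115 after fetal alcohol and 150 under isocaloric diet. Its lowest value was on control diet array 1, and control diet array 2 lay between the fetal alcohol arrays. Dimmer Htr3a probe sets that were not tested gave 33.7 and 39.3, 27.9 and 26.2, and 30.3 (D49395_s_at) in the same order. U59672_at gave 18.2 and 31.7, 18.2 and 27.2, and 34.2. For isocaloric minus control diet 7 were higher and 6 lower, with a median of 0.05, led by Htr3a with 0.76 ± 0.39 (adjusted p = 0.822), Cnr1, the cannabinoid receptor of Cck-holding interneurons, with 0.52 ± 0.53 and Kcnc1 with -0.45 ± 0.40.

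**Figure D4:**
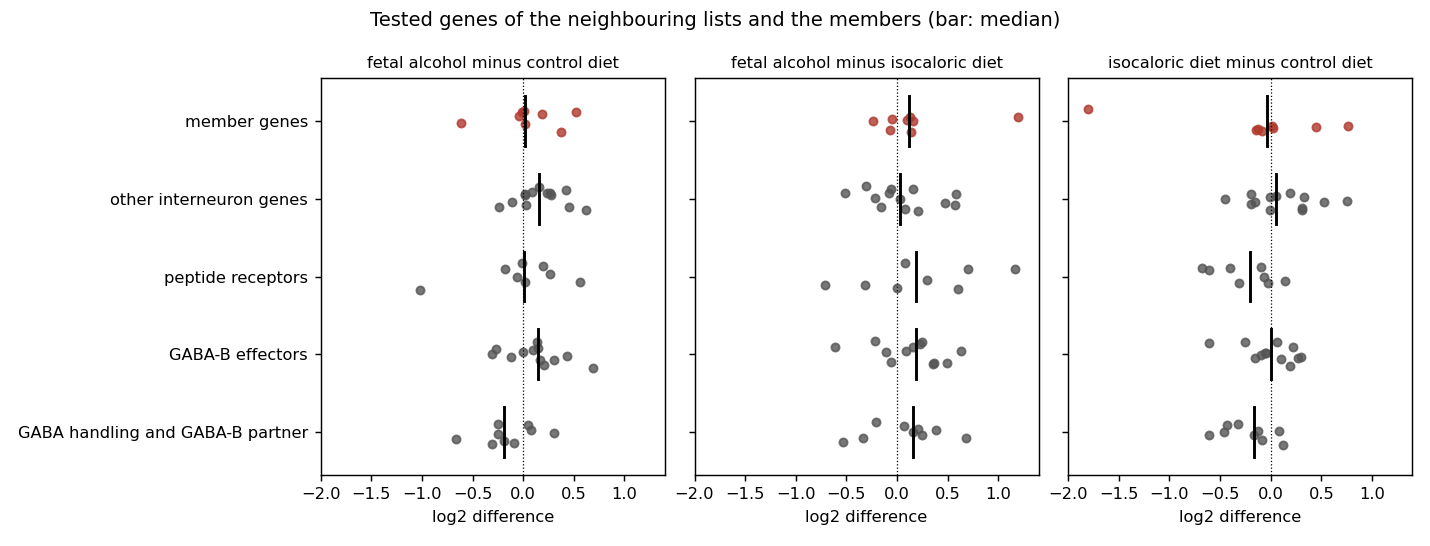
Log2 differences of the tested genes (1 point each, at the brightest tested probe set) of the 4 neighbouring lists and of the member genes in the 3 comparisons, with a bar at each median. Gabbr1, at -1.81, is the point farthest from 0 in the panel of isocaloric minus control diet.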

How the data were processed

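The series gives 1 deposited table of array intensities on a linear scale, for 8799 probe sets and 5 arrays. Not given in the sources used here are the software and scaling behind the authors' intensities. Their 2% trimmed means lay between 150.19 and 150.22, a ratio of 1.0002, so the values were used as deposited. The 59 control probe sets were left out. The other 8740 were put on a log2(intensity + 10.605) scale, and the 5244 with a mean at or above the 40th percentile were tested. Limma 3.58.1 (R 4.3.3) fitted the 3 group means over all 5 arrays, with an intensity trend in the variance, 2-sided tests, Benjamini-Hochberg adjustment over all probe sets and a threshold of 0.05. Residual degrees of freedom were 2 and prior ones 6.30. Detection calls were not used here.

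Groups came from the sample titles. Gene names came from the platform annotation: 7006 probe sets had 1 symbol, 308 several and 1426 none, and 6985 of the 7006 were looked up by gene identifier for a current symbol. The brightest probe set stood for a gene. The members and lists were chosen with earlier results of these data known. Named were all member probe sets, the 3 genes of a list with the largest difference in a comparison described, and the 3 genes nearest in profile to each member spanning at least 1 on the log2 scale. Promoters are RefSeq sequences of GRCr8. The fit was tested on simulated data. Alternatives changed the offset, filter, scaling, variance model, arrays and replicate block.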

Additional observations from a re-analysis of the deposited data

How the results depend on the processing

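Of the 36 member differences (12 probe sets, 3 comparisons), 24 kept their sign over the alternatives run and 12 did not. All Gabbr1 differences kept it except that of AB016161cds_r_at for isocaloric minus control diet (-0.24 to 0.0627 with 1 array left out). The count of member probe sets past the threshold was 0 under every alternative for fetal alcohol minus control diet and for fetal alcohol minus isocaloric diet. For isocaloric minus control diet it was 0 except without either fetal alcohol array, so the range with 1 array left out was 0 to 2, both Gabbr1, where 11 and 13 of all probe sets passed. The replicate block (the labelled number as a block) left the members' count at 0 with 8 calls over all probe sets. The deviations of same-numbered arrays correlated at -0.113. With 2 arrays per group this correlation cannot show whether the samples were paired, and the labels state no pairing. The crossed replicate block, chosen after seeing the data, gave 0 member calls and 21 over all probe sets. Over all probe sets, fetal alcohol minus control diet had 9 calls under equal medians, 1 under quantile normalization, 1 with an offset of 32, 17 without fetal alcohol array 1 and 25 without array 2. With the filter at the 60th percentile Gad2 and AB016161cds_r_at were not tested.

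Of the 12 differences that changed sign, Calb1 for fetal alcohol minus isocaloric diet was the farthest from 0, at -0.23. For fetal alcohol minus control diet, equal medians gave 0.0051 for Gad1 and 0.0219 for Gad2, and quantile normalization gave 0.0233 for Gad2, -0.016 for Npy and -0.0038 for Calb2. With 1 array left out the ranges were -0.37 to 0.29 for Gad1, -0.13 to 0.10 for Gad2, -0.23 to 0.30 for Sst at K02248cds_s_at, -0.12 to 0.15 for Npy and -0.10 to 0.14 for Calb2. For fetal alcohol minus isocaloric diet they were -0.38 to 0.28 for Gad1, -0.0125 to 0.21 for Npy and -0.69 to 0.22 for Calb1. For isocaloric minus control diet quantile normalization gave -0.0086 for Gad1 and -0.0073 for Sst at M25890_at, and the ranges were -0.0434 to 0.0707 for Gad1, -0.0728 to 0.12 for Sst and -0.22 to 0.0478 for Npy. A second probe set turned the sign for Gabbr1 after fetal alcohol (0.29 at AB016161cds_r_at) and for Sst on the isocaloric diet (-0.47 at K02248cds_s_at). The cause was not tested.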

Other observations

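Probe sets that the annotation leaves without a gene but whose identifiers carry the sequence records of Gabbr1 and Calb1 were read after the values of the members had been seen. Of the AB016161 probe sets outside the rule, the brighter measured 640.3 and 536 under control diet, 343 and 425 after fetal alcohol and 211 under isocaloric diet. Its log2 differences were -0.60 for fetal alcohol minus control diet and -1.43 for isocaloric minus control diet, next to -0.61 and -1.81 at AB016160_at. The dimmer measured 96.5 and 86.6, 74.2 and 81.8, and 63.4, with log2 differences of -0.21 and -0.46. Both placed the isocaloric array below both fetal alcohol arrays and these below both control diet arrays. M31178_at, from the record of Calb1, measured 99.0 and 66.1 under control diet, 87.3 and 119 after fetal alcohol and 86.9 under isocaloric diet, so the high isocaloric value of the named Calb1 probe set was not found there (log2 difference 0.09 against 0.76).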
